A study of Boechera stricta with 13 samples.

Results

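Among the transcripts that responded to drought, herbivory or both in Boechera stricta shoots, 96 annotated transcripts stood out by their abundance. They were chosen by a measured value, the FPKM (mapped fragments relative to transcript length and library size) summed over the 2 groups of a comparison, which had to reach 500 in at least 1 of the 5 comparisons that pool the populations. Of 2934 annotated identifiers listed in any of the 9 comparisons, 1863 were listed in these 5, and 107 of those 1863 reached this level. From these, 11 were left out: 7 were listed for herbivory in both populations and 6 lay in runs of 3 or more consecutive gene numbers on a scaffold, with 2 meeting both conditions. The level and the listing of these transcripts are therefore descriptions and not findings.

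RNA was sequenced from 13 plants, which the labels call whole plants and the study's methods call shoots. The double challenge group (drought with herbivory) held 5 plants, the drought group 4, the herbivory group 2 and the control group 2. Plants came from a high elevation population, Big Horns (7 plants), and a low elevation population, Black Hills (6 plants), each as replicates of 1 line. Within a population, the drought group held 2 plants, while the herbivory and control groups held 1 plant each. Drought plants received progressively less water over weeks, and herbivory plants were fed on by larvae of Spodoptera exigua, a generalist caterpillar. Double challenge plants received both treatments, and control plants were watered and carried no larvae. The labels put all Big Horns libraries in one sequencing lane and all Black Hills libraries in another, and an effect of lane cannot be told apart from one of population.

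Boechera is a wild mustard related to Arabidopsis. In plants of this family, chewing larvae trigger jasmonic acid signaling, which induces defenses such as glucosinolates, while water deficit acts largely through abscisic acid, which closes stomata and slows leaf growth. Both pathways are known to interact in Arabidopsis. Highly abundant transcripts of a shoot are usually those of photosynthesis, primary metabolism, storage and strongly induced defense proteins. The deposited tables do not pair identifiers with gene symbols, so the function of these 96 transcripts, and the labelled tissue, could not be checked against marker genes. Most transcripts are therefore given by their rank among the 96, from the largest sum down.

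Each table lists only the transcripts that the authors called different between its 2 groups, with 1 total FPKM, taken as the sum of both groups, and no value per plant. For further analysis the authors required a minimum fold change and a false discovery limit, and whether the lists carry both limits was not checked. A transcript that is not listed may still have differed. The spread between plants is unknown, and no test across plants was possible. Because tables share groups, levels were obtained here from the sums alone. The sum of double challenge and drought minus the sum of double challenge and control, for instance, is the drought level minus the control level. Where several sums exist for a transcript, they set the lowest and highest level that each group can have. These ranges allow each sum to be off by up to 10%, since tables can differ in scale. In whole shoots, fewer cells that express a transcript and less of it per cell cannot be told apart.

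The largest sum of the 96 transcripts ranged over 500.48 to 19674.7 FPKM, with a median of 878.2 FPKM, while the median over all 1863 annotated transcripts of the pooled comparisons was 61.9 FPKM. Of the 96, 36 reached 1000 FPKM, 18 reached 2000 FPKM and 5 reached 5000 FPKM. The lowest transcripts inside the limit had 500.48 and 501.55 FPKM, and the highest outside it had 497.34 and 488.53 FPKM. The largest sum was that of double challenge and drought for 71 transcripts, of double challenge and control for 15, of herbivory and control for 5, of drought and control for 4, and of double challenge and herbivory for 1.

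**Figure D1:**
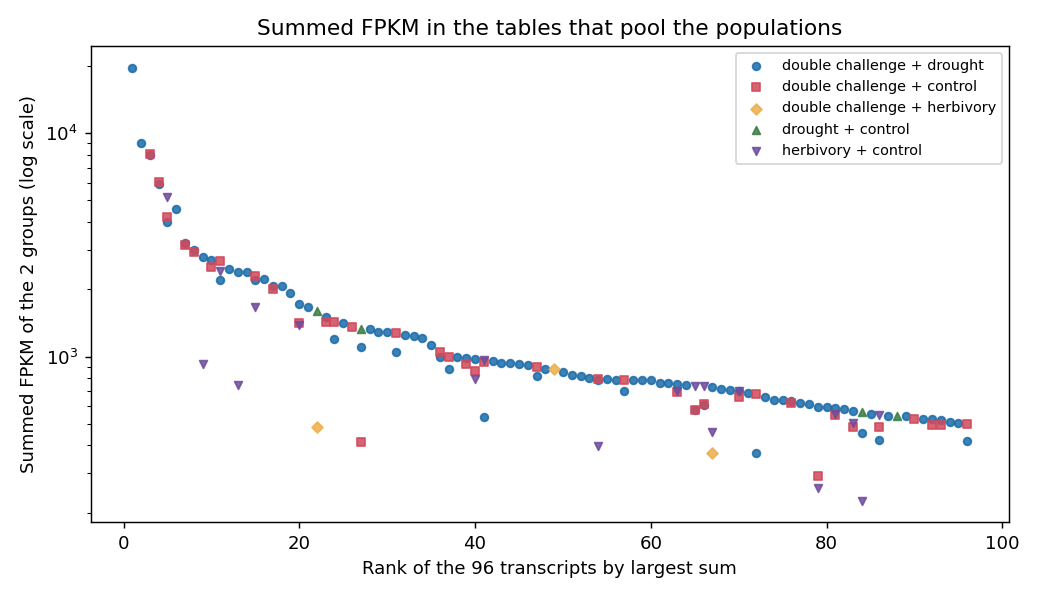
Summed FPKM (log scale) of the 96 transcripts in the 5 comparisons that pool the populations, by rank of the largest sum; each point is 1 transcript in 1 comparison. The sums fall steeply over the first ranks, from 19674.7 FPKM at the first to under 1000 FPKM after the first 36.

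The abundant transcripts were listed mostly for the double challenge against drought, as were all annotated transcripts of the pooled comparisons. That comparison is the effect of larvae on droughted plants. In that comparison 91 of the 96 (94.8%) were listed, beside 86.7% of all annotated transcripts of the pooled comparisons. Double challenge against control listed 37 of them (38.5%), beside 42.4% of all. The rule had lowered this share, as 46 of the 107 transcripts of 500 FPKM or more (43%) were listed before any were left out. Herbivory against control listed 19 (19.8%), beside 19.9% of all, and drought against control listed 4 (4.17%), beside 9.07% of all. Double challenge against herbivory listed 3 (3.12%), beside 3.7% of all. For double challenge against herbivory, the share was close to the background, and nothing particular to the abundant transcripts was seen there. For herbivory against control it was also close, but the rule had lowered it. Before any were left out, 27 of the 107 annotated transcripts of 500 FPKM or more (25.2%) were listed there. The share was 12.7% under 50 FPKM, 21.9% at 50 to 100 FPKM, 28.5% at 100 to 250 FPKM and 27.5% at 250 to 500 FPKM. The part of abundance in this share was not tested. The rule itself requires a listing in 1 of these 5 comparisons, so no test was made.

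Over the pooled comparisons, 56 of the 96 were listed once, 22 in 2 comparisons and 18 in 3, and none in 4 or 5. The most frequent pattern was a listing for the double challenge against drought and in no other pooled comparison, with 52 transcripts (54.2%, beside 49.5% of all annotated transcripts). Their sums of double challenge and drought ranged over 501.55 to 19674.7 FPKM, with a median of 821.3 FPKM. Another 19 were listed for the double challenge against drought and against control, and 15 for these and for herbivory against control.

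Within the populations, drought in the Black Hills was the comparison that listed most of these transcripts. Drought against control listed 56 of the 96 in Black Hills plants (58.3%), beside 35.8% of all annotated transcripts of the pooled comparisons, and 5 in Big Horns plants (5.21%), beside 3.01%. Herbivory against control listed 4 of the 96 in Black Hills plants (4.17%, beside 7.89%) and 2 in Big Horns plants (2.08%, beside 6.6%), counts that the rule lowered by leaving out what both populations share. Listing for drought in the Black Hills moved with abundance. Of all annotated transcripts of the pooled comparisons with a largest sum under 50 FPKM, 31.7% were listed there, compared with 31.5% of those of 50 to 100 FPKM, 40.2% of those of 100 to 250 FPKM, 44.3% of those of 250 to 500 FPKM and 57% of those of 500 FPKM or more. The part of abundance in the count was not tested, and the difference between the populations was not tested either.

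**Figure D2:**
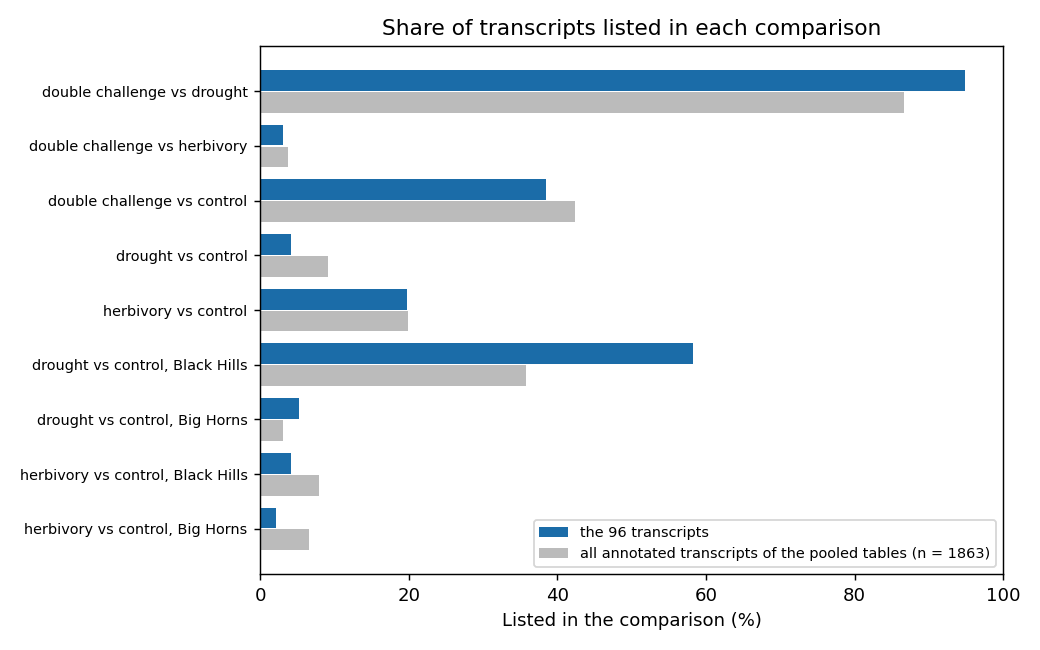
Percentage of transcripts listed in each of the 9 comparisons, for the 96 abundant transcripts (blue) and for all 1863 annotated transcripts of the pooled comparisons (grey). The 2 shares lie furthest apart for drought against control in the Black Hills, with 58.3% and 35.8%.

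The comparison of the double challenge with drought and the Black Hills comparison of drought with control had 54 transcripts in common, 59.3% of the 91 and, over all annotated transcripts, 526 of 1616 (32.5%). Both comparisons contain the Black Hills drought plants. The pooled sum of double challenge and drought was set against the Black Hills sum of drought and control. It lay between 0.8 and 1.25 times that sum for 32 of the 54 (59.3%, beside 47.9% of the 526). The median ratio was 0.999, beside 1.04 over the 526. In 7 of the 54 (13%, beside 15.8% of the 526) the pooled sum was at least 2 times the Black Hills sum. The widest gaps were those of rank 8, with 3006.25 and 16.9 FPKM, rank 4, with 5918.36 and 243.29 FPKM, and rank 17, with 2070.44 and 135.21 FPKM. In these transcripts the Black Hills drought and control plants held little of what the pooled double challenge and drought plants held, whereas in 32 of the 54 the sums were alike.

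Among the transcripts whose direction could be settled, the largest fold difference was that of Bostr.26675s0389, rank 8. Its sums were 3006.25 FPKM for double challenge and drought, 2952.36 FPKM for double challenge and control, 36.26 FPKM for drought and control in Big Horns plants and 16.9 FPKM for drought and control in Black Hills plants. Since drought and control were low in both populations, nearly all of the pooled sums belonged to the double challenge. The double challenge level lay between 2676.4 and 3247.6 FPKM, while drought and control each lay at 29.2 FPKM or lower. The double challenge was therefore at least 91.5-fold higher than drought and at least 92.5-fold higher than control, and both comparisons listed it.

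This transcript also rose with herbivory alone in the Black Hills, where the sum of herbivory and control was 557.93 FPKM. Herbivory there had 483.5 to 613.7 FPKM, against at most 18.6 FPKM in control, at least a 26-fold rise. It is not listed for herbivory against control in the pooled comparison. The Black Hills herbivory plant, although far above the unfed plants, stayed below the level of the pooled double challenge plants. Because these 2 values come from different tables and populations, that difference was not tested.

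Group levels could be solved directly for Bostr.22549s0001, rank 27, the only one of the 96 with 3 sums over the same 3 groups. Its sums were 1101.73 FPKM for double challenge and drought, 413.32 FPKM for double challenge and control, and 1329 FPKM for drought and control. Solving them gives 93 FPKM in the double challenge, 1008.7 FPKM in drought and 320.3 FPKM in control. Drought was at least 2.18-fold higher than control, with a range of 866.5 to 1150.9 FPKM against 178.1 to 454.7 FPKM. With larvae added to drought, the transcript fell at least 4.15-fold, to 235.2 FPKM or lower in the double challenge. The solved double challenge level was also below control, but with sums off by 10% these 2 ranges overlapped. In Black Hills plants the sum of drought and control was 1391.15 FPKM, and from the pooled sum that of Big Horns plants was estimated as 1266.8 FPKM. With only the Black Hills sum off by 10%, this estimate lay between 1127.7 and 1406 FPKM. An error in the pooled sum would widen that range.

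Bostr.12645s0001, rank 84, had a similar order of groups. Its sums were 456.66 FPKM for double challenge and drought, 562.59 FPKM for drought and control, and 226.35 FPKM for herbivory and control. Drought lay between 257.3 and 502.3 FPKM, whereas the double challenge and herbivory lay at 245 FPKM or lower each and control between 4 and 249 FPKM. Drought thus exceeded control by at least 8.36 FPKM and the double challenge by at least 12.4 FPKM, both listed comparisons. The folds that the sums secure there were small, at least 1.03-fold and 1.05-fold. It exceeded herbivory at least 2.05-fold, a pair that was not compared directly.

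The next gene number on the same scaffold, rank 9, also had more in drought than in herbivory. Its sums were 2797.4 FPKM for double challenge and drought, 930.2 FPKM for herbivory and control, and 3832.41 FPKM for drought and control in the Black Hills. In the Black Hills, drought was at least 1.69-fold and 1402.7 FPKM higher than herbivory. The same held for rank 13, in which drought was at least 1.35-fold higher than herbivory in the Black Hills. Its sums were 2390.31, 747.25 and 2458.36 FPKM in the same 3 comparisons. In all, drought was higher than herbivory for 4 of the 96 and lower for 1 over the pooled groups, and could not be ordered for the other 91.

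Rank 67 was lower in herbivory than in drought and lower in the double challenge than in control, while the double challenge and drought could not be ordered. Its sums were 367.92 FPKM for double challenge and herbivory, 727.27 FPKM for double challenge and drought, and 461.01 FPKM for herbivory and control. Drought had at least 249.8 FPKM and was at least 1.62-fold higher than herbivory. The double challenge minus control lay between -176 and -10.2 FPKM, at least 1.03-fold lower, a comparison that did not list the transcript.

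**Figure D3:**
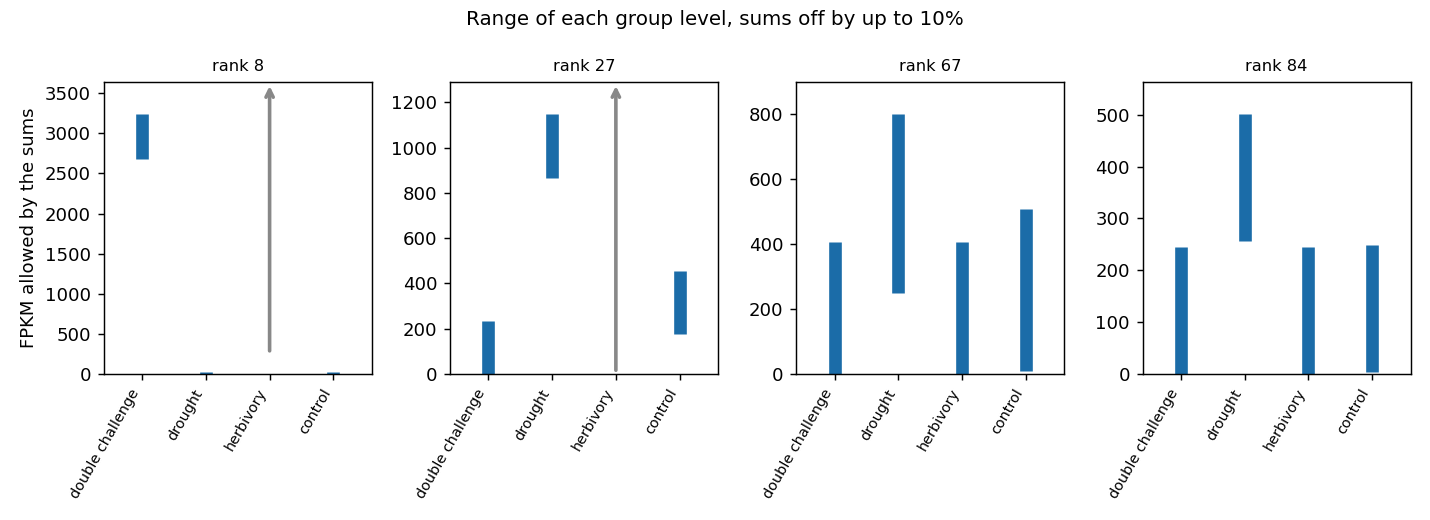
Ranges of FPKM that the sums allow in each treatment group for 4 transcripts, with sums off by up to 10%; bars span the lowest to the highest level, and arrows mark herbivory groups with no upper limit. Rank 8 (Bostr.26675s0389) lies at 2676.4 FPKM or higher in the double challenge and at 29.2 FPKM or lower in drought and control, while rank 27 (Bostr.22549s0001) has 866.5 FPKM or more in drought and 454.7 FPKM or less in control.

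For the 35 transcripts listed for the double challenge both against drought and against control, drought and control themselves could be compared. The sum of double challenge and drought differed from that of double challenge and control by at most 10% of the larger sum in 21 of the 35 (60%), beside 68.5% of all 609 annotated transcripts with both sums. The sum with drought was the larger by more than 10% in 5 and the smaller in 9, beside 74 and 118 of the 609. With each sum off by up to 10%, the ranges settled fewer directions. Over all 96, drought was above control in 3 and below it in 3, and 90 could not be ordered. Over the 35, the median ratio of the 2 sums was 1.00. Where the double challenge makes up most of both sums, near-equal sums leave the fold between drought and control undetermined. For Bostr.26527s0071, rank 3, the sums were 7986.46 and 8041.73 FPKM, and for rank 7 they were 3238.28 and 3168.86 FPKM.

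Gaps went both ways, as they did over all annotated transcripts. The widest of the 35 was that of Bostr.22549s0001 above, with sums of 1101.73 FPKM with drought and 413.32 FPKM with control. Rank 79 had sums of 593.73 FPKM with drought and 290.72 FPKM with control, and drought was at least 1.76-fold higher than control. In contrast, rank 41 had 537.74 FPKM with drought and 941.63 FPKM with control, and drought was at least 1.43-fold lower. Rank 72 had 369.3 and 682.57 FPKM in the same order, and drought was at least 1.51-fold lower. Ranks 79, 41 and 72 were not listed for drought against control in the pooled comparison, while ranks 79 and 41 were listed for it in the Black Hills. For rank 72, drought in Big Horns plants was 197.2 FPKM or more below control, as herbivory and control together held only 199.08 FPKM in Black Hills plants.

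**Figure D4:**
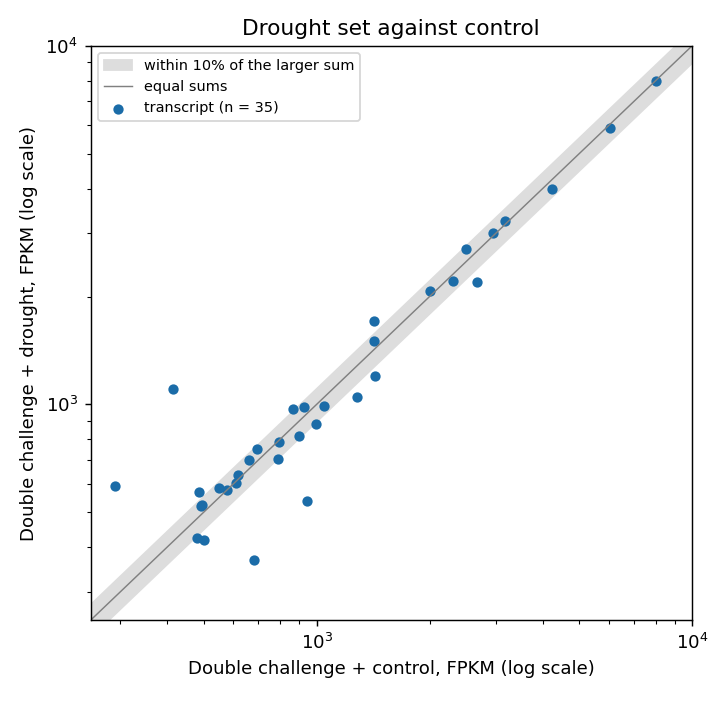
Sum of double challenge and drought (vertical) against the sum of double challenge and control (horizontal) for the 35 transcripts with both, in FPKM on log scales; the grey band is 10% of the larger sum. In the band lie 21 transcripts, with 5 above it and 9 below it by their sums.

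Likewise, 15 transcripts allowed the double challenge to be compared with herbivory, which is the effect of drought on plants with larvae. In 8 of the 15 (53.3%, beside 45.2% of all 321 annotated transcripts with both sums) the sums with control differed by at most 10%. The sum with the double challenge was the larger by more than that in 3 and the smaller in 4, beside 83 and 93 of the 321. With each sum off by up to 10%, the double challenge was above herbivory in 2 of the 96 and below it in 2. None of the 15 was listed between the double challenge and herbivory. Rank 54 had sums with control of 795.43 FPKM in the double challenge and 395.43 FPKM in herbivory, and the double challenge was at least 1.65-fold higher. Rank 15 had 2302.2 and 1670.02 FPKM in the same order, at least 1.13-fold higher. The reverse was seen in rank 5, with 4226.15 FPKM in the double challenge sum and 5177.06 FPKM in the herbivory sum, and in rank 65 with 576.12 and 735.49 FPKM. With sums off by 10%, the double challenge was lower than herbivory by at least 10.6 FPKM and 28.2 FPKM in these transcripts. The lowest folds that the sums allow there were close to 1, at 1 and 1.04.

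Herbivory and drought could also be set side by side within a population for the abundant transcripts. Rank 1 had a pooled sum of double challenge and drought of 19674.65 FPKM. In Black Hills plants its sum of drought and control was 4758.74 FPKM and its sum of herbivory and control was 7085.67 FPKM. Drought there was at least 1.22-fold and 1142.5 FPKM lower than herbivory. It was listed within the Black Hills for both treatments, although in the pooled comparisons only for the double challenge against drought.

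In Big Horns plants, Bostr.26527s0071 had sums of 542.97 FPKM for drought and control and 1544.63 FPKM for herbivory and control. Herbivory had 792.9 to 1699.1 FPKM, against at most 597.3 FPKM in control and in drought. This transcript rose at least 1.33-fold with herbivory relative to control, a listed comparison, and herbivory was at least 2.33-fold above drought. The group or population that holds most of its pooled sums could not be settled from these values.

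Some of the abundant transcripts carried unequal totals in the populations. The sum of drought and control of rank 22 was 2591.09 FPKM in Big Horns plants and 539.78 FPKM in Black Hills plants, a ratio of 4.8. Its pooled sum of drought and control was 1597.65 FPKM, and its sum of double challenge and herbivory was 484.04 FPKM, so the groups without larvae held more of it in total than the groups with larvae. Rank 88 was nearly even, with 501.98 FPKM in Big Horns plants and 594.72 FPKM in Black Hills plants. For herbivory and control, the pooled sum of rank 20 was 1390.23 FPKM and its Black Hills sum 490.24 FPKM, which leaves an estimated 2290.2 FPKM for Big Horns plants. With 1 or 2 plants per group in a population and 1 value per table, no error could be estimated for these values.

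The 96 transcripts came from 53 scaffolds, and 34 scaffolds carried 1 each. Scaffold 23794 carried 9 (9.38%, beside 4.29% of all annotated transcripts of the pooled comparisons), while scaffold 7867 carried 3 (3.12%, beside 6.17%). Among the 96, 2 pairs had consecutive gene numbers. The rule had left out identifiers in runs of 3 or more, so a low count was favoured in advance. One pair was Bostr.12645s0001 with rank 9, in both of which drought was above herbivory. The other was the pair of ranks 2 and 20, whose sums of double challenge and drought were 9085.67 and 1710.55 FPKM. With runs of 2 or more over all listed annotated identifiers left out as well, which removes these pairs, 75 transcripts remained. Whether such neighbours are similar copies that share reads was not tested.

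Over all 96, and with each sum off by up to 10%, at least 1 pair of groups could be ordered for 16 transcripts, and for 4 of these in a comparison that listed them. For the other 80 the ranges ordered no pair of groups, and 17 of the 96 had a single sum.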

How the data were processed

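Shoot RNA of 13 plants was sequenced. Per the study's methods, the authors mapped reads with TopHat2, built and merged transcripts with Cufflinks2 and Cuffmerge2, and tested groups with Cuffdiff2. FastQC 0.10.1 is named in the submitters' processing notes, which like the methods state no genome build. What the authors deposited are 9 lists of called genes, 5 with the populations pooled and 4 within a population. In each, the authors deposited 1 total FPKM per gene, which Cuffdiff2 scaled within that comparison and which is taken, from its name, as the sum over both groups. Columns of fold change, direction and q-value hold the study's own comparisons and were not used.

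Sums of tables that share a group were subtracted, and sums were called larger or smaller where they differed by over 10% of the larger one. The lowest and highest level of each group was found by linear programming, with a pooled group as the mean of both populations and each sum off by up to 10%. The ranges, but not the subtraction of sums, were run on simulated tables. These tables were built from the same model, with errors inside the allowed limit. They check the code and not whether the model holds for these data. Pooled sums were 0.891 to 1.08 times the mean of the population sums for herbivory (62 identifiers) and 0.923 to 1.04 times for drought (26). The 2 ways to sum all 4 groups had ratios of 0.972 to 1.01 (7 identifiers), and 0 of 1249 identifiers in several tables lacked a solution at 10%. Background shares are of identifiers in the pooled tables, since the number of genes tested is unknown, as is the depth per library.

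The members and alternatives were chosen with earlier results of these data known. By rule, identifiers were printed for members with the largest differences in a comparison that listed them, with no more than 2 rising and 2 falling, and other members go by rank. The members described by rank, the use of population tables for named ones, and the ranges with their alternatives were chosen after values were seen. Calculations used Python 3.11.15 with scipy 1.17.1, numpy 2.4.6 and pandas 2.3.3, and plots used matplotlib 3.10.9.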

Additional observations from a re-analysis of the deposited data

How the results depend on the processing

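The number of transcripts was 227 with a largest sum of at least 250 FPKM, 36 with at least 1000 FPKM and 185 with the largest sum taken over all 9 tables, against 96. The levels solved for Bostr.22549s0001 ranged over 21.9 to 164.1 FPKM in the double challenge, 937.6 to 1079.8 FPKM in drought and 249.2 to 391.4 FPKM in control with sums moved by 5%. With sums moved by 10% they ranged over -49.2 to 235.2, 866.5 to 1150.9 and 178.1 to 462.5 FPKM in the same order. For the difference of drought and control, a 5% margin gave 13 transcripts with the drought sum higher and 12 lower, against 5 and 9 at 10%. A 20% margin gave 2 higher and 2 lower, and transcripts of at least 1000 FPKM 2 higher and 3 lower. For the double challenge and herbivory, a 5% margin gave 5 higher and 5 lower, against 3 and 4 at 10%. A 20% margin gave 2 higher and 1 lower, and transcripts of at least 1000 FPKM 1 higher and 1 lower. For the double challenge and control, the count of lower transcripts from the sums with drought became 0 with a 20% margin and 1 among transcripts of at least 1000 FPKM, and that from the sums with herbivory became 0 among transcripts of at least 1000 FPKM. For drought and herbivory, both counts became 0 among transcripts of at least 1000 FPKM.

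With sums off by up to 5%, the ranges placed the double challenge above herbivory in 4 and below it in 4, against 2 and 2 at 10%, and drought above control in 6 and below it in 9, against 3 and 3 at 10%. With sums off by up to 20%, the double challenge was above herbivory in 1 and below it in 0, below drought in 1 and below control in 0, against 2 and 2 at 10% for these last comparisons. With the 5 pooled sums only, the double challenge was above drought in 0 and above control in 0, herbivory was above control in 0, and drought was above herbivory in 2 and below it in 0, against 1, 1, 1, 4 and 1 with all sums, so the order of groups in Bostr.26675s0389 rests on the population tables. No paired analysis was possible because each table holds 1 value for its groups, and leaving out plants could not be done for the same reason. These shifts follow from how each alternative is built, with other margins, fewer sums or fewer transcripts. Absence from a table does not show that a transcript was unchanged.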
